A study of Homo sapiens with 22 samples.

Results

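The iron transport and storage genes followed here were SLC40A1, SLC11A2, TFRC, FTH1, FTL, ACO1 and IREB2, taken with every probe that the platform's annotation names for them. Of these 7 genes, 5 had a named probe, with 7 probes among the 48803 on the array, and FTH1 and IREB2 were not analysed here. In all, 6 of the 7 probes passed a filter on low signal, so that 5 genes were tested among 10147. The genes had been chosen because SLC40A1 and SLC11A2 moved in opposite directions between the siRNA arms, so that difference is given below as a description and is not tested.

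The cells were HEK293T, derived from human embryonic kidney and immortal, with the large T antigen of SV40 in them. They had been transfected either with scrambled siRNA or with siRNA against Satellite III (Sat III) transcripts, the non-coding RNAs that heat-stressed human cells copy from pericentromeric repeats. Each of the 2 arms was sampled untreated at 37 °C, directly after a heat shock (a 42 °C water bath, 1 h long), and after the same heat shock followed by 6 h of recovery. The scrambled arm had 4 arrays for each treatment, and the Sat III arm had 3 for untreated cells, 3 for heat shock and 4 for recovery. All 6 groups had thus been transfected, and no untransfected cells were compared. The labels number the replicates without saying whether they were separate cultures, so the p-values below reflect sample-to-sample spread that may be technical only.

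Cells take up transferrin-bound iron through the transferrin receptor, coded by TFRC, and move it out of the endosome as ferrous iron through DMT1, coded by SLC11A2. Iron not used at once is stored in ferritin, a shell of light chains (FTL) and heavy chains (FTH1), and leaves the cell through ferroportin, coded by SLC40A1, the iron exporter of vertebrate cells. The iron regulatory proteins, coded by ACO1 and IREB2, bind hairpins called iron-responsive elements when iron is scarce. They then block translation of ferritin and ferroportin transcripts and protect the TFRC transcript from decay.

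Levels are log2 intensities after background correction and quantile normalisation, and they are compared only within a probe. Median raw intensity was 48.9 to 64.6 per array, and 13176 to 14863 probes per array were detected. HSPA6, a strictly stress-inducible HSP70 gene that marks the treatment, was at 4.56 to 4.89 without heat, at 12.49 to 13.74 straight after it and at 9.61 to 10.60 in recovery. In the authors' normalised table, 15 of 22 columns matched the scanner column of the same label and 6 matched one of another group, so the tables disagree on labels. Each of these 6 had the probe order of the scanner array next before it in sample order. Groups read by that table's labels thus mix arms and treatments of the scanner table. Read by its labels, that table had HSPA6 at 5.98 and 5.77 in heat shock replicate 4 of the scrambled and the Sat III arm, near its untreated level, whereas in the scanner table HSPA6 followed the treatment labels on all 22 arrays. HSPA6 does not check the siRNA labels. The scanner table is used below. No probe was named for Sat III, so the knockdown was not checked. Of 5 genes known from HEK293T cells, NEFL, NEFM and VIM were detected on all 22 arrays, LHX1 on 9 and PAX2 on 0, and their summed level was 38.53 to 39.76 in the scrambled arm and 39.49 to 40.50 in the Sat III arm. The arms did not overlap in this sum within any treatment, and its part in the arm differences below was not tested. The hepatocyte markers ALB, APOA1, HAMP and TTR and the keratins KRT5 and KRT14 were detected on 0 arrays. Of macrophage markers CD68 was detected on 22 arrays and CD14 on 15, and CD163, CSF1R and PTPRC on 0. Of erythroid markers EPOR was detected on 6 arrays and HBB, ALAS2 and SLC4A1 on 0, and of enterocyte markers CDX2 on 22 and VIL1, FABP2 and ALPI on 0. Over all genes, arrays of different replicate number deviated together within replicates 1 and 2 and within 3 and 4 (median correlation 0.086) and apart between these pairs (-0.117), a split that the labels do not name. In bulk RNA, fewer cells that express a gene and less of its RNA per cell cannot be told apart.

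Printed first are the sequences upstream of the 3 genes whose levels moved most, and part of the iron-responsive element of FTL. The results turn on these genes. RefSeq's promoter table for GRCh38.p14 held 6 of the 7 genes in 10 windows, of which SLC11A2 had 4. Each promoter is the 250 bases before a transcription start, read 5′ to 3′ on the gene's strand. Capitals mark matches on either strand to a pair of heat shock units (GAANNTTC or TTCNNGAA), the antioxidant response element (TGACNNNGC), the metal response element (TGCACNC or TGCGCNC), the hypoxia core (ACGTG) and the TATA core (TATAA). In the FTL line, bases 21 to 50 after the start, capitals mark the loop of the element, CAGTGT. The line ends where the sequence window ends, so the hairpin is not printed whole.
SLC40A1, chr2:189580787-189581036, minus strand: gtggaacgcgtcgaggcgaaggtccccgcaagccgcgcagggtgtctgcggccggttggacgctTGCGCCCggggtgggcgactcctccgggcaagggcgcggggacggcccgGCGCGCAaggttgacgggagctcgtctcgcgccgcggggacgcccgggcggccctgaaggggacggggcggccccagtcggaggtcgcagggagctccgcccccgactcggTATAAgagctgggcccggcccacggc
SLC11A2, window 1, chr12:51026385-51026634, minus strand: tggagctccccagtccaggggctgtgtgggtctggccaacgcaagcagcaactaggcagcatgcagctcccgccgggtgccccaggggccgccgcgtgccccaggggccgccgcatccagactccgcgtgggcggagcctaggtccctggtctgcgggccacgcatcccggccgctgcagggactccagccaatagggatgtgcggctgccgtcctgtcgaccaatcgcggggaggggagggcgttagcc
SLC11A2, window 4, chr12:51028887-51029136, minus strand: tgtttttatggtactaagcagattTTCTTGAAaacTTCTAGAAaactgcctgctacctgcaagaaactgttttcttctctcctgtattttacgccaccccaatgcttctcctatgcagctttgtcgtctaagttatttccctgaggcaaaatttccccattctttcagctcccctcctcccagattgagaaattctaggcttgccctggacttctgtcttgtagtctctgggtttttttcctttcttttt
TFRC, chr3:196082091-196082340, minus strand: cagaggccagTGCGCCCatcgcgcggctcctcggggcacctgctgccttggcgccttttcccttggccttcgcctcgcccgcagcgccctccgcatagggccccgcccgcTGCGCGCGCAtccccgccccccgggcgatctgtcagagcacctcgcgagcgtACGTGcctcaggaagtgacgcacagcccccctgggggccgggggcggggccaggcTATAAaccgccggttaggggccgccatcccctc
FTL, chr19:48965329-48965358, plus strand: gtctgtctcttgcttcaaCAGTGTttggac
The SLC40A1 window held 2 metal response matches and 1 TATA core. TFRC had 3 metal response matches, of which 2 overlapped, with 1 hypoxia core and 1 TATA core. None of the 6 motifs searched, with the E-box CACGTG as the remaining one, was found in window 1 of SLC11A2, whereas window 4 held 2 pairs of heat shock units. These windows are printed for that contrast; of the others, window 2 held 1 TATA core and window 3 no match. The FTL promoter held 1 heat shock pair and 1 hypoxia core, and that of ACO1 no match. Among 35116 promoter windows of the table, 11.58% held the heat shock pair, 24.83% the metal response element, 18.51% the hypoxia core, 18.93% the TATA core, 10.91% the antioxidant element and 6.345% the E-box. CAGTG lay within the first 50 transcribed bases of 6.484% of them. A match is a run of letters and not a measured binding site.

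Ferroportin RNA was low in these cells and was higher with Sat III siRNA at every treatment. Its brighter probe (ILMN_2053103) was above background on 18 of 22 arrays, and a second probe (ILMN_1761833) was above background on 0 and was not tested. On the scrambled arm's arrays SLC40A1 was at 5.63, 5.77, 5.66 and 5.78 when untreated, at 4.86, 5.23, 5.01 and 5.10 after heat shock, and at 5.92, 6.04, 5.82 and 5.67 in recovery. In the Sat III arm it was at 6.40, 6.35 and 6.27 untreated, 6.15, 6.09 and 5.94 after heat shock, and 6.69, 6.48, 6.21 and 6.66 in recovery. Within each treatment the arms did not overlap, and the 4 heat-shocked arrays of the scrambled arm were the only ones on which the probe was not above background.

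SLC11A2, the importer, was lower with Sat III siRNA at every treatment. In the scrambled arm it was at 10.17, 10.52, 10.26 and 10.27 untreated, 9.81, 9.85, 10.04 and 9.83 after heat shock, and 10.83, 10.61, 10.68 and 10.61 in recovery. In the Sat III arm it was at 9.18, 9.20 and 9.15 untreated, 8.55, 8.60 and 8.65 after heat shock, and 9.51, 9.62, 9.48 and 9.44 in recovery. Every Sat III array lay below every scrambled array, whatever the treatment, and within each arm the order was heat shock, untreated, recovery with no overlap between treatments.

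TFRC, the receptor, was lowest after heat shock in both arms. It was at 11.87, 11.93, 11.92 and 11.84 on the untreated scrambled arrays, 11.41, 11.49, 11.67 and 11.47 after heat shock, and 11.98, 11.94, 11.72 and 11.91 in recovery. With Sat III siRNA it was at 11.96, 11.96 and 11.92 untreated, 11.54, 11.54 and 11.79 after heat shock, and 12.10, 12.15, 12.16 and 12.03 in recovery. Heat-shocked arrays were the lowest of each arm, and untreated and recovering arrays overlapped in the scrambled arm but not in the Sat III arm.

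**Figure D1:**
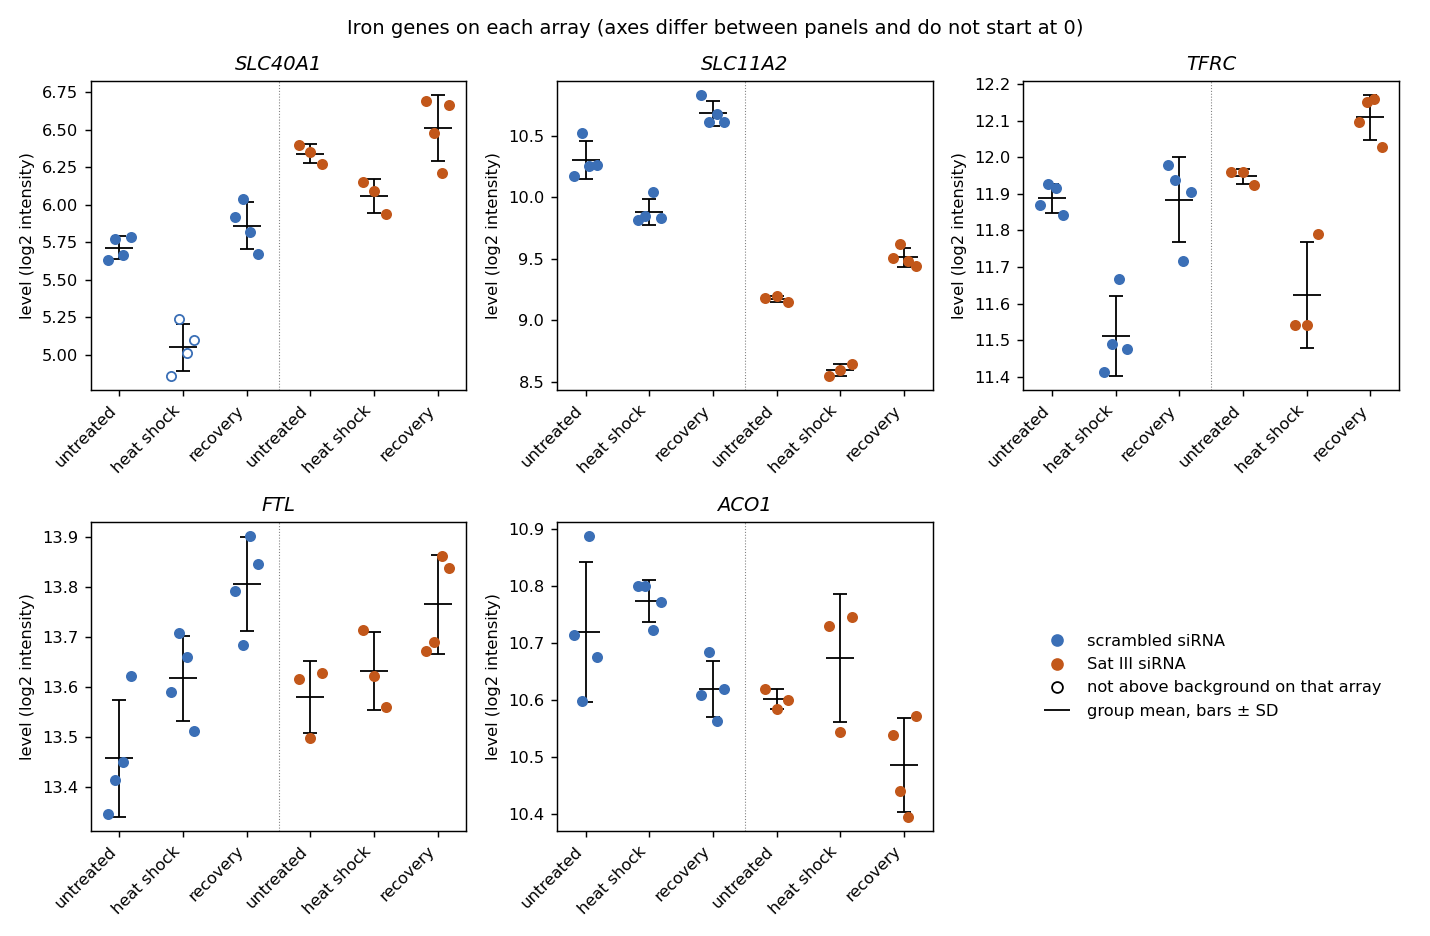
Each panel plots the log2 intensity of 1 gene (vertical axis) on each of the 22 arrays in the 6 groups (horizontal axis), with the group mean and SD as lines. SLC40A1 is higher and SLC11A2 lower on every Sat III array than on the scrambled arrays of the same treatment, while TFRC dips after heat shock in both arms.

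The sizes of the arm differences were as follows, with no test because they chose the genes. SLC40A1 was higher with Sat III siRNA by 0.63 ± 0.11 (log2 difference ± SE, 3 against 4 arrays) in untreated cells and by 0.65 ± 0.10 (4 against 4) in recovery. After heat shock its group means were 6.06 and 5.05, a difference of 1.01 ± 0.11, or at least 1.46-fold, since the scrambled group was not above background. The lower bound sets the scrambled arrays at the lowest signal detected on each of them. Among 10147 genes, SLC40A1 had the place 11 from the highest difference in untreated cells and 22 in recovery, on the contrast that chose it.

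SLC11A2 differed by -1.13 ± 0.08 in untreated cells, which is 2.19-fold lower, by -1.29 ± 0.08 or 2.44-fold after heat shock, and by -1.17 ± 0.08 or 2.25-fold in recovery. It had the place 6, 3 and 13 from the lowest difference in these treatments. TFRC had the place 3705, 2552 and 983 from the highest. It differed by 0.06 ± 0.08, 0.11 ± 0.08 and 0.22 ± 0.07 in the same order, with arms that overlapped except in recovery. FTL differed by 0.12 ± 0.08, 0.01 ± 0.08 and -0.04 ± 0.08, and ACO1 by -0.12 ± 0.07, -0.10 ± 0.07 and -0.13 ± 0.07, with overlapping arms throughout. Over all genes, 6.09%, 7.03% and 10.5% passed the threshold between arms in the 3 treatments, and nothing is read from that share for genes chosen on this contrast.

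The same differences, on arrays that the choice of genes also used, are given by replicate pair. For SLC40A1 the values in replicates 1 and 2 and in replicates 3 and 4 were 0.67 and 0.55 untreated, 1.08 and 0.88 after heat shock, and 0.61 and 0.69 in recovery. For SLC11A2 they were -1.16 and -1.11, -1.26 and -1.29, and -1.16 and -1.18. In the Sat III arm, replicates 3 and 4 were only 1 array, replicate 4, both untreated and after heat shock. The size for SLC40A1, a dim probe, moved with the background step: without background correction it was 0.40 untreated, 0.58 after heat shock and 0.44 in recovery, still higher with Sat III siRNA. In the authors' normalised values read by their labels, SLC40A1 differed by 0.21 and SLC11A2 by -0.42 untreated. By the scanner labels, the scrambled group there included Sat III recovery replicate 3, and the Sat III group scrambled recovery replicate 4. These sizes are thus of mixed groups.

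**Figure D2:**
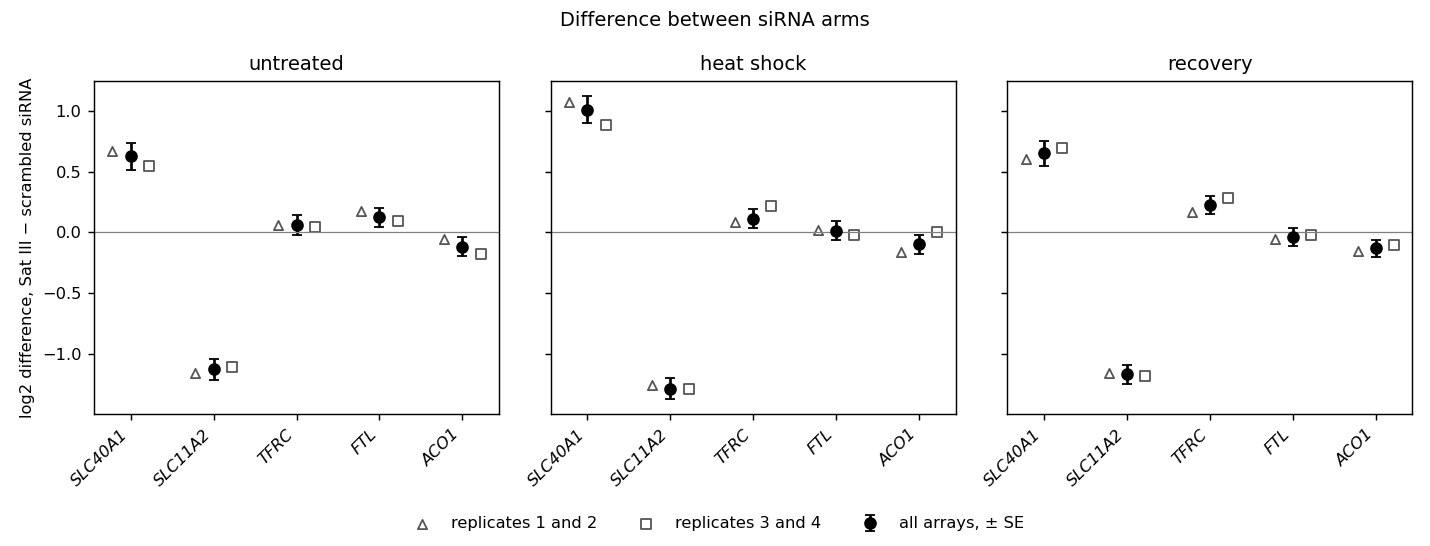
The vertical axis gives the log2 difference, Sat III minus scrambled siRNA, for 5 iron genes in each treatment; filled points with bars are all arrays ± SE, open triangles replicates 1 and 2, and open squares replicates 3 and 4. Open squares rest on 1 Sat III array in untreated and in heat-shocked cells. By the filled points, SLC40A1 lies between 0.63 and 1.01 and SLC11A2 between -1.29 and -1.13, and the other 3 genes lie between -0.13 and 0.22. SLC40A1 was not above background in the scrambled heat shock group.

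In scrambled-siRNA cells heat shock lowered the RNA of the exporter, the importer and the receptor. SLC40A1 fell from a mean of 5.71 ± 0.08 (SD, n = 4) to 5.05 ± 0.16 (n = 4), a change of -0.66 ± 0.10, or at least 1.15-fold lower (limma, adjusted p = 9.2e-05). SLC11A2 fell from 10.30 ± 0.15 to 9.89 ± 0.11, a change of -0.42 ± 0.08 (limma, adjusted p = 0.00075). TFRC fell from 11.89 ± 0.04 to 11.51 ± 0.11, a change of -0.38 ± 0.07 (limma, adjusted p = 0.0013). For each of these 3 genes every heat-shocked array was below every untreated one, a description with no share over all genes to set beside it. Of the 5 tested members 3 fell and 0 rose, against 5.7% of all genes that fell and 11.7% that passed in either direction, and the members' median was -0.38 against -0.02 over all genes. Adjusted p-values are by Benjamini-Hochberg over the 10147 genes, and a gene is said to rise or fall at an adjusted p under 0.05. With arrays scaled to equal medians in place of quantile normalisation, which shifts the median of all genes to -0.12, SLC40A1 remained past the threshold and SLC11A2 (adjusted p = 0.16) and TFRC (adjusted p = 0.25) did not.

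After 6 h of recovery SLC11A2 stood above its untreated level, while SLC40A1 and TFRC were near theirs. SLC11A2 reached 10.68 ± 0.10, a rise of 0.38 ± 0.08 over untreated cells (limma, adjusted p = 0.0032). FTL rose from 13.46 ± 0.12 to 13.81 ± 0.09, a change of 0.35 ± 0.08 (limma, adjusted p = 0.0048), with no overlap between the groups. SLC40A1 at 0.15 ± 0.10 and TFRC at -0.0037 ± 0.07 did not pass, with adjusted p-values of 0.40 and 0.98, and their 95% intervals of -0.07 to 0.36 and -0.16 to 0.15 leave room for small changes. Of 5 members 2 rose and 0 fell, against 5.9% of all genes that rose and 10.9% in either direction. Both calls were lost with median scaling (adjusted p = 0.77 for SLC11A2 and 0.74 for FTL), and each pair of replicates taken alone kept the size but not the call.

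Set against the heat-shocked arrays, which both treatment comparisons share, recovery was higher by 0.81 ± 0.10 for SLC40A1, or at least 1.27-fold (limma, adjusted p = 5.2e-06). SLC11A2 was higher by 0.80 ± 0.08 (limma, adjusted p = 1.7e-07) and TFRC by 0.37 ± 0.07 (limma, adjusted p = 0.00089). Of 5 members 3 rose and 0 fell, against 12.2% of all genes that rose and 21.7% in either direction. The call for TFRC was lost with median scaling (adjusted p = 0.46) and in replicates 3 and 4 alone (adjusted p = 0.29).

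With Sat III siRNA the importer and the receptor again fell after heat shock. SLC11A2 went from 9.18 ± 0.02 (n = 3) to 8.60 ± 0.05 (n = 3), a fall of -0.58 ± 0.09 (limma, adjusted p = 0.00015). TFRC went from 11.95 ± 0.02 to 11.62 ± 0.14, a fall of -0.32 ± 0.09 (limma, adjusted p = 0.020). SLC40A1 went from 6.34 ± 0.06 to 6.06 ± 0.11, and although its 3 heat-shocked arrays were all below the untreated ones, the difference of -0.28 ± 0.12 did not pass (limma, adjusted p = 0.18). Of 5 members 2 fell and 0 rose, against 3.51% of all genes that fell and 7.62% in either direction. The call for TFRC was lost without Sat III untreated replicate 1 (adjusted p = 0.069) or 2 (0.065), without Sat III heat shock replicate 1 (0.0997) or 2 (0.11), and when only these groups were fitted (0.090), and median scaling ended both calls (adjusted p = 0.13 for SLC11A2 and 0.72 for TFRC).

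In recovery SLC11A2 reached 9.51 ± 0.08 (n = 4) in the Sat III arm, 0.34 ± 0.08 above untreated cells (limma, adjusted p = 0.012). It was the only 1 of 5 members to pass, against 6.05% of all genes that rose and 12% in either direction. TFRC, at 12.11 ± 0.06, was above all untreated arrays by a mean of 0.16 ± 0.08 and did not pass (limma, adjusted p = 0.21). SLC40A1 differed by 0.17 ± 0.11, with overlapping groups (limma, adjusted p = 0.35). The call for SLC11A2 was lost with median scaling (adjusted p = 0.78), in replicates 1 and 2 alone (0.15), and on the matching arrays of the authors' own normalised values (0.087). In those values read by their labels the difference was -0.42, with scrambled recovery replicate 4 among the untreated arrays by the scanner labels. In replicates 3 and 4, with 1 untreated array in this arm, the difference was 0.31.

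Against heat shock, recovery in the Sat III arm was higher by 0.45 ± 0.11 for SLC40A1 (limma, adjusted p = 0.0054), by 0.92 ± 0.08 for SLC11A2 (limma, adjusted p = 6.6e-08) and by 0.49 ± 0.08 for TFRC (limma, adjusted p = 0.00015). Of 5 members 3 rose and 0 fell, against 11.8% of all genes that rose and 21.5% in either direction. With median scaling SLC11A2 alone passed, and SLC40A1 (adjusted p = 0.21) and TFRC (adjusted p = 0.34) did not.

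**Figure D3:**
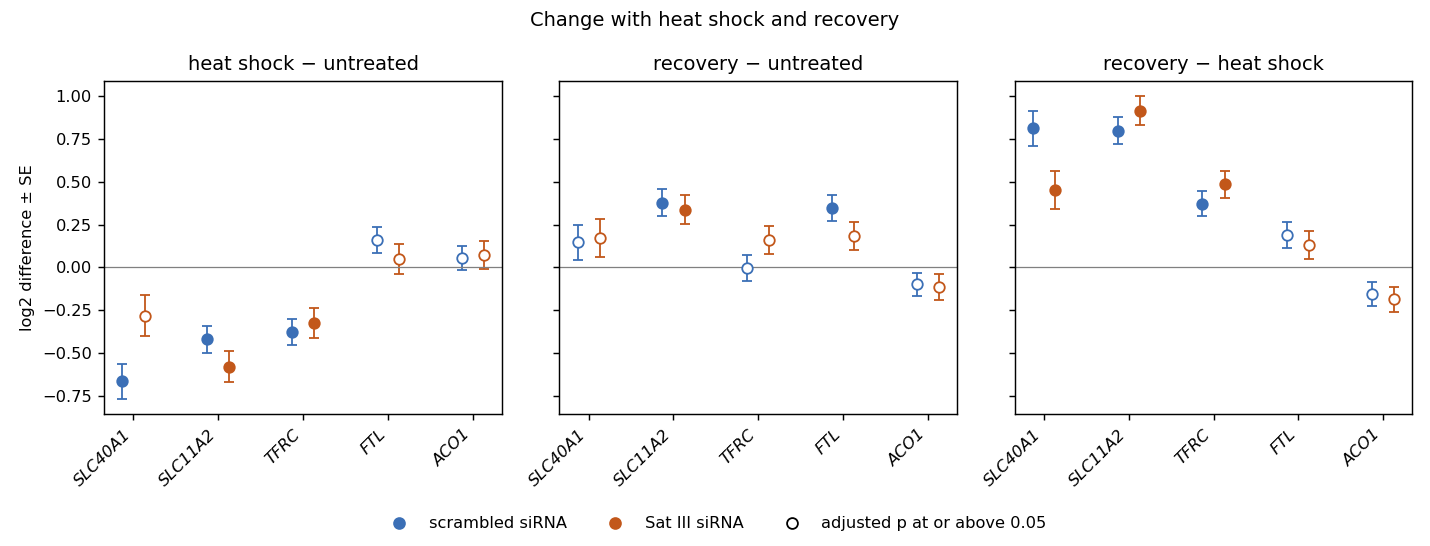
The vertical axis gives the log2 difference ± SE for each iron gene between treatments, in the scrambled arm (blue) and the Sat III arm (orange); filled points have an adjusted p under 0.05. SLC11A2 falls with heat shock by 0.42 and 0.58 in the 2 arms and rises above untreated by 0.38 and 0.34 in recovery.

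Whether Sat III siRNA altered the response to heat shock itself was tested as a difference between the arms' changes. For SLC40A1 the change was less negative with Sat III siRNA by 0.38 ± 0.16 (95% interval 0.06 to 0.71), which did not pass (limma, adjusted p = 0.997). Before adjustment, limma's p for SLC40A1 was 0.0227. These tests subtract arm differences that chose the genes, so no support is drawn from this p or from the count of members below. The scrambled heat shock group was not above background, so that the fall there is only known to be at least 1.15-fold, and the sign of this difference is not settled. For SLC11A2 the difference was -0.16 ± 0.12 (interval -0.41 to 0.09) and for TFRC 0.05 ± 0.11 (interval -0.18 to 0.29). The differences in the recovery change were 0.02 ± 0.15 for SLC40A1, -0.04 ± 0.12 for SLC11A2 and 0.16 ± 0.11 for TFRC. Of 5 members 0 passed in either comparison, as did 0% of the 10147 genes with limma. At an unadjusted p under 0.05 there were 368 genes (3.63%) for heat shock and 387 (3.81%) for recovery, with 1 and 0 members among them, and a fit with a trended, robust prior called 0 and 1 genes. Without Sat III heat shock replicate 4, 2 genes passed for heat shock.

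FTL codes for the ferritin light chain. It lay at 13.35 to 13.62 on untreated scrambled arrays, 13.51 to 13.71 after heat shock and 13.68 to 13.90 in recovery. In the Sat III arm its ranges were 13.50 to 13.63, 13.56 to 13.71 and 13.67 to 13.86, and the rise in recovery of 0.18 ± 0.08 did not pass (limma, adjusted p = 0.15). A second FTL probe (ILMN_1814823) gave the same signs in the 6 treatment comparisons but other calls when all probes were fitted. On it heat shock raised FTL by 0.26 ± 0.07 in the scrambled arm (limma, adjusted p = 0.018), where the brighter probe gave 0.16 ± 0.08 and did not pass (limma, adjusted p = 0.24 in that fit and 0.21 in the fit by gene). Recovery raised it by 0.27 ± 0.07 in the scrambled arm (limma, adjusted p = 0.016) and by 0.38 ± 0.07 in the Sat III arm (limma, adjusted p = 0.0023). Which probe is read thus decides 2 of the FTL calls. Between arms the probes differed in sign: in recovery the second probe was at 13.39 to 13.48 with Sat III siRNA and 13.23 to 13.33 with scrambled siRNA, a difference of 0.13 ± 0.07 with no overlap, where the brighter probe gave -0.04. After heat shock they gave -0.0090 and 0.01, and for the difference between the arms' recovery changes 0.11 and -0.16.

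ACO1, which codes for iron regulatory protein 1 and cytosolic aconitase, passed in none of the treatment comparisons with limma. Its levels lay between 10.56 and 10.89 in the scrambled arm and between 10.40 and 10.75 in the Sat III arm. Recovery set against heat shock gave its widest differences, -0.15 ± 0.07 in the scrambled arm (limma, adjusted p = 0.12) and -0.19 ± 0.07 in the Sat III arm (limma, adjusted p = 0.081).

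Other genes shared the patterns of the 3 transporters across the 22 arrays, as a description of arrays that share groups and siRNA. By Pearson correlation of levels, SLC40A1 was most like ATP6V0E1, a proton pump subunit (0.939), MAP7 (0.925) and KATNAL1 (0.915). SLC11A2 was most like ATL1, which shapes the endoplasmic reticulum (0.960), VMP1, an autophagy gene (0.960), and MXD4 (0.955). TFRC was most like SDF2 (0.954), CLDND2 (0.933) and ZNF500 (0.932).

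A wider list of 49 iron genes was followed in the same fit, and 30 of them were tested. Between the arms, SLC39A14, PCBP1 and NCOA4 were lower with Sat III siRNA in at least 2 treatments. SLC39A14, a metal importer also known as ZIP14, was lower by -0.47 ± 0.08 untreated (8.16 against 8.64; limma, adjusted p = 0.0010), -0.43 ± 0.08 after heat shock (0.0020) and -0.39 ± 0.08 in recovery (0.00175). PCBP1, an iron chaperone that loads ferritin, was lower by -0.34 ± 0.07, -0.43 ± 0.07 and -0.37 ± 0.06 (limma, adjusted p = 0.0034, 0.00025 and 0.00052). NCOA4, the receptor for autophagy of ferritin, was lower by -0.34 ± 0.07 after heat shock (limma, adjusted p = 0.00275) and by -0.27 ± 0.06 in recovery (0.0086), and its untreated value of -0.21 ± 0.07 did not pass (0.076). In none of the 3 treatments did the arms overlap for these 3 genes. They were picked by these same comparisons, so the lack of overlap is a description and adds no support.

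CYBRD1, a ferric reductase, was higher with Sat III siRNA in untreated cells by 0.61 ± 0.15 (limma, adjusted p = 0.013), but this was lost without Sat III untreated replicate 4 (0.060). On the untreated scrambled arrays CYBRD1 lay at 4.67 to 5.36, near or below the lowest signal detected there (5.33 to 5.42), so this size is uncertain. EPAS1, a hypoxia-inducible factor, was higher after heat shock by 0.49 ± 0.11 (limma, adjusted p = 0.0064). Its group means were also higher with Sat III siRNA in recovery (7.86 against 7.54) and untreated (7.90 against 7.74). STEAP1, of a metalloreductase family, was lower in recovery by -0.42 ± 0.12 (limma, adjusted p = 0.023), and that call was lost without Sat III recovery replicate 2 (0.064), 3 (0.058) or 4 (0.072) or scrambled recovery replicate 1 (0.079) or 3 (0.064). HMOX1, the heme oxygenase that frees iron from heme, was lower in recovery by -0.30 ± 0.10 (limma, adjusted p = 0.0494), which was lost without Sat III recovery replicate 1 (0.17), 2 (0.060) or 4 (0.095) or scrambled recovery replicate 2 (0.061), 3 (0.086) or 4 (0.17). Its untreated and heat shock values of -0.30 ± 0.10 and -0.13 ± 0.10 did not pass (0.090 and 0.56). Counted over the 30 genes, 1 was higher and 2 lower untreated, 1 and 3 after heat shock, and 1 and 5 in recovery. Over all genes 2.27% were higher and 3.82% lower untreated, 2.35% and 4.68% after heat shock, and 3.6% and 6.92% in recovery. The list's median difference stayed between -0.03 and 0.02, against 0.0002 to 0.007 for all genes. With median scaling 0 of the 30 genes passed between the arms.

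Between treatments, FBXL5, NFE2L2, MTF1 and HMOX1 were among the genes past the threshold, and counts for the whole list, with shares over all genes, follow below. FBXL5, the iron-sensing ubiquitin ligase adaptor that marks IREB2 for decay, fell after heat shock by -0.32 ± 0.08 in the scrambled arm (limma, adjusted p = 0.015) and by -0.54 ± 0.10 in the Sat III arm (0.00084). The scrambled call was lost without heat shock replicate 2 (adjusted p = 0.057) or untreated replicate 1 (0.056) or 4 (0.063). In recovery it rose again by 0.36 ± 0.08 (limma, adjusted p = 0.0036) and 0.61 ± 0.09 (4.4e-05). Heat shock raised NFE2L2, the NRF2 factor that drives ferritin and ferroportin genes, by 0.53 ± 0.13 in the scrambled arm (limma, adjusted p = 0.0096), and in the Sat III arm its 0.22 ± 0.15 did not pass (0.485). MTF1, the metal-responsive transcription factor, rose by 0.67 ± 0.14 in the Sat III arm (limma, adjusted p = 0.0038), and its 0.35 ± 0.12 in the scrambled arm did not pass (0.0775). Recovery set against heat shock was lower for NFE2L2 in the scrambled arm, by -0.55 ± 0.13 (limma, adjusted p = 0.0043). It was lower for MTF1 in the Sat III arm, by -0.49 ± 0.13 (limma, adjusted p = 0.012). The arms' changes in these 3 genes did not differ past the threshold (limma, adjusted p = 0.997 for each).

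CYBRD1 rose after heat shock in the scrambled arm by 0.59 ± 0.13 (limma, adjusted p = 0.0046), and CDC14A, a phosphatase gene with a transcript that carries an iron-responsive element, by 0.40 ± 0.10 (0.0084). The size for CYBRD1 is uncertain, since its untreated scrambled level was near or below the lowest signal detected on those arrays. Against heat shock, CDC14A was lower in recovery by -0.48 ± 0.10 in the scrambled arm and -0.53 ± 0.11 in the Sat III arm (limma, adjusted p = 0.0011 and 0.0010). With Sat III siRNA it was also below untreated cells in recovery, by -0.39 ± 0.11 (limma, adjusted p = 0.020). HMOX1 was lower in recovery than untreated by -0.55 ± 0.10 in both arms (limma, adjusted p = 0.00082 scrambled and 0.0016 Sat III). Against heat shock it was lower by -0.40 ± 0.10 and -0.57 ± 0.10 (limma, adjusted p = 0.0043 and 0.00039). STEAP3, the endosomal ferric reductase that works upstream of DMT1, was lower in recovery than untreated. Its differences were -0.48 ± 0.08 in the scrambled arm and -0.41 ± 0.08 in the Sat III arm (limma, adjusted p = 0.00043 and 0.0033). In scrambled recovery STEAP2 rose by 0.40 ± 0.11 over untreated cells (limma, adjusted p = 0.022), which was lost without untreated replicate 1 (0.072) or 4 (0.056) or recovery replicate 1 (0.061) or 3 (0.060). FECH, the last enzyme of heme synthesis, fell by -0.30 ± 0.10 (limma, adjusted p = 0.048), which was lost without untreated replicate 2 (0.054), 3 (0.13) or 4 (0.15) or recovery replicate 1 (0.096), 3 (0.091) or 4 (0.14).

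Counted over the 30 genes, heat shock raised 3 and lowered 2 in the scrambled arm and raised 1 and lowered 1 in the Sat III arm, where 5.97% and 4.11% of all genes rose and 5.7% and 3.51% fell. Recovery against untreated raised 1 and lowered 3, and raised 0 and lowered 3, with 5.9% and 6.05% of all genes higher and 5% and 5.94% lower. Recovery against heat shock raised 3 and lowered 5 in each arm, where 12.2% and 11.8% of all genes were higher and 9.53% and 9.75% lower. With median scaling 0 genes of the list passed in these comparisons except 1 that rose in the last one, in the Sat III arm, and the cause was not tested.

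**Figure D4:**
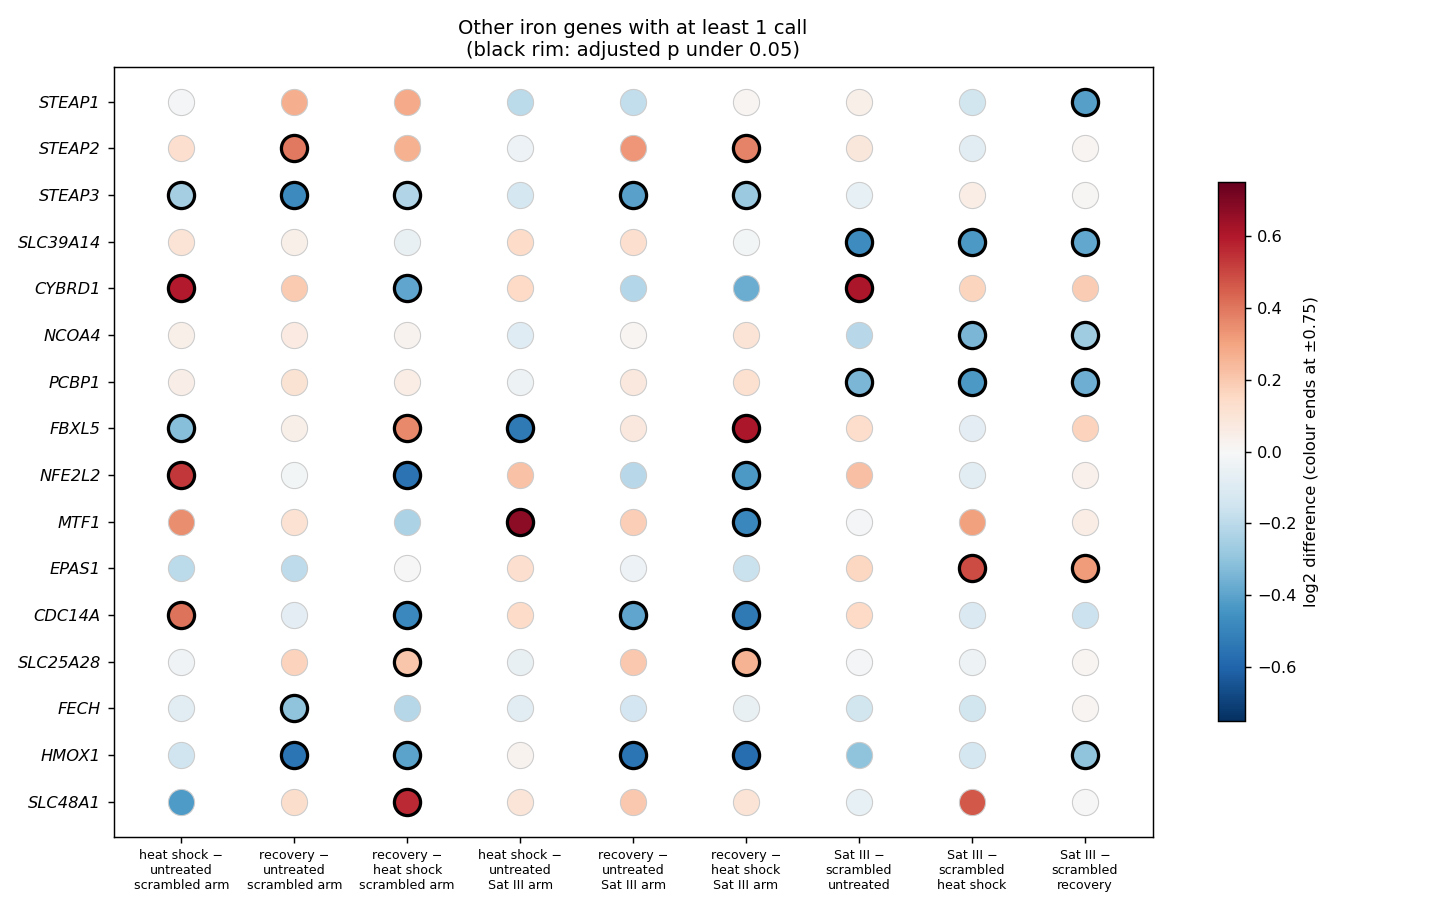
Colour gives the log2 difference for the 16 other iron genes (vertical axis) with an adjusted p under 0.05 (black rim) in at least 1 of 9 comparisons (horizontal axis). SLC39A14 and PCBP1 are lower with Sat III siRNA at each treatment, and FBXL5 is lower after heat shock in both arms.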

How the data were processed

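RNA from 22 samples of HEK293T cells was labelled with biotin from 300 ng and hybridised to Illumina bead arrays, per the labels. The scanner table deposited by the authors holds each probe's intensity, not normalised, and a detection p-value, per the file headers. A second deposited table holds the authors' normalised intensity, with the method not given in the sources used here. In it, 15 of 22 columns matched the scanner column of the same label (rank correlation over 0.9999), 6 matched that of another group and 1 none, so it served as an alternative only.

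Intensities were corrected and quantile normalised with neqc (limma 3.58.1, R 4.3.3; offset 16) and taken to log2. Probes with a detection p under 0.01 on at least 3 arrays were kept (15324 of 48803), and the brightest probe stood for each of 10147 genes. Of all probes, 28098 had 1 gene symbol in the platform annotation, which can be old, and a probe with several was not named. One limma model with 6 group means was fitted, with Benjamini-Hochberg adjustment over all tested genes and a threshold of 0.05. The fit was tested on simulated data. The number of arrays limits the precision. The genes, the wider iron list and the marker lists were chosen with earlier results of these data known. The members were all named. Of the wider list, FBXL5, NCOA4, HMOX1 and NFE2L2 were to be named where tested, with the up to 4 genes of smallest adjusted p among those past the threshold in each comparison. The alternatives were other background, scaling, filter and probe rules, fewer arrays, a replicate block and the authors' values. Promoter sequences are RefSeq's, GRCh38.p14.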

Additional observations from a re-analysis of the deposited data

Results flagged for a closer look

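In the scrambled heat shock group, SLC11A2 on replicate 3, at 10.04, stood apart from the other 3 arrays at 9.81 to 9.85, and its gap to the nearest was 0.837 of the group's range. Of 24 probe-by-group sets of 4 arrays examined, this was the only 1 so marked, and chance marks about 1 in 20.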

How the results depend on the processing

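Of the tested member values, 881 recomputed ones kept direction and side of the threshold, 43 lost the call, 5 gained it and 36 turned sign. Of the descriptive arm differences, 316 stayed within the replicate SD and 19 did not. For each change below the cause was not tested, except that fits on replicates 1 and 2 or 3 and 4 alone hold fewer arrays. In the Sat III arm, replicates 3 and 4 hold 1 array untreated and 1 after heat shock. In the authors' values as labelled, 6 columns matched scanner arrays of another group, so those groups mix arms and treatments.

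Of 5 members, the 3 past the threshold for heat shock in the scrambled arm became 1 with median scaling, 0 in replicates 3 and 4 alone and 0 in the authors' values as labelled. The 2 for recovery against untreated became 0 with median scaling, in replicates 1 and 2 alone, in 3 and 4 alone and in the authors' values as labelled. The 3 for recovery against heat shock became 0 in the authors' values as labelled and 3 to 4 with 1 array left out. The call for TFRC among them was also lost with median scaling and in replicates 3 and 4 alone. In the Sat III arm, the 2 for heat shock became 0 with median scaling, 1 with only the compared groups, 0 in replicates 3 and 4 alone and 0 in the authors' values as labelled, and 1 to 2 with 1 array left out. The 1 for recovery against untreated became 2 with the mean of probes, and 0 with median scaling, in either pair of replicates alone and in the authors' values as labelled or on matching arrays. The 3 for recovery against heat shock became 1 with median scaling, 1 in replicates 3 and 4 alone and 0 in the authors' values as labelled.

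SLC40A1's arm difference was 0.40 untreated, 0.58 after heat shock and 0.44 in recovery without background correction, and 0.41, 0.58 and 0.44 with an offset of 50. In the authors' values as labelled it was 0.21, 0.57 and 0.42, and on matching arrays 0.45, 0.64 and 0.45. SLC11A2's was -0.42 untreated and -1.16 after heat shock in the authors' values as labelled.

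Sign turned for these values. With median scaling ACO1 was -0.032 for heat shock in the scrambled arm and -0.018 in the Sat III arm. In replicates 3 and 4 alone ACO1 was -0.034 in the scrambled and FTL -0.067 in the Sat III comparison, and ACO1's recovery difference between arms was 0.073. In replicates 1 and 2 alone TFRC was 0.060 for scrambled recovery, ACO1's heat shock difference between arms was -0.11 and SLC40A1's recovery difference -0.065. In the authors' values as labelled, scrambled recovery gave 0.0085 for ACO1 and -0.057 for SLC40A1. With those values the Sat III arm gave 0.013 for SLC40A1 after heat shock, 0.0045 for ACO1, -0.049 for FTL and -0.42 for SLC11A2 in recovery, and -0.050 for FTL in recovery against heat shock, and ACO1's heat shock difference between arms was -0.082. On matching arrays ACO1's heat shock and recovery differences were -0.0054 and 0.0023 and TFRC's heat shock difference -0.038. With 1 array left out, ACO1's heat shock and recovery differences between arms ranged from -0.039 to 0.082 and from -0.072 to 0.025, TFRC's heat shock difference from -0.030 to 0.11, SLC11A2's and SLC40A1's recovery differences from -0.11 to 0.0074 and from -0.040 to 0.12, and TFRC in scrambled recovery from -0.035 to 0.052.

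FTL passed for scrambled recovery against heat shock without recovery replicate 2 (0.23, limma adjusted p = 0.047), and ACO1 for the Sat III arm without heat shock replicate 2 (-0.25, adjusted p = 0.040). FTL passed with the mean of probes for scrambled heat shock (0.21, adjusted p = 0.033) and Sat III recovery (0.28).

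Over all genes, the counts past the threshold of 1184, 1106 and 2202 in the scrambled arm (heat shock, recovery, recovery against heat shock) and 773, 1217 and 2182 in the Sat III arm became 251, 45, 457, 157, 43 and 414 with median scaling, and 0 in each with the authors' values as labelled. Replicates 1 and 2 alone gave 567, 165, 1020, 470, 238 and 1122, and replicates 3 and 4 alone 261, 76, 583, 68, 15 and 342. Between arms 618, 713 and 1067 genes became 44, 68 and 114 with median scaling, and the share higher went from 37.2% to 6.82%, 33.4% to 14.7% and 34.2% to 4.39%. It also went from 56.1% to 67.0% for scrambled recovery against heat shock and from 53.9% to 65.6% for Sat III heat shock. For the differences between arms, the count of 0 became 2 without Sat III heat shock replicate 4 and 1 with a trended, robust prior.

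Samples of the same replicate number had correlations of -0.06 to 0.30 over 31 pairs, with 19 over 0.1 and those of replicate 4 at 0.18 to 0.30; no comparison had every pair over 0.1, so the numbers were not taken to pair them. With a replicate block SLC40A1 for scrambled heat shock had an adjusted p of 9.6e-05 and TFRC for Sat III heat shock 0.025, 1394 genes passed for scrambled heat shock, and no member call changed. Of the wider list, FECH no longer passed for scrambled recovery (0.052), and the genes higher for Sat III heat shock went from 1 to 2 and those lower for Sat III recovery against heat shock from 5 to 6.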
